A study of Mus musculus with 23 samples.

Results

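Organoids that KC cells had formed in Matrigel after 13 days were compared with KC cells grown flat in flasks (2D), over 9 of the 23 bulk RNA sequencing libraries of the study. The libraries were chosen by their titles, 3 of Matrigel organoids and 6 of 2D cells, all of the first batch that the sample labels name. KC cells are primary pancreatic tumour cells of Ptf1a Cre/+ mice, in which Cre made under the control of Ptf1a, a gene of pancreatic progenitors and acinar cells, switches on a tumour-driving allele in both groups alike. Both groups came from a single line, that of mouse 9591, so that nothing here shows how other tumours behave. The 2D cells grew in DMEM with fetal bovine serum and went straight into lysis buffer, and the labels give no day for them. For the organoids, single 2D cells were seeded in growth factor-reduced Matrigel and kept until day 13, and the gel was digested with collagenase at 37 °C before lysis. Per the paper, collagen gels received the medium of the 2D cells, and media were the same for collagen and Matrigel. The form of culture, the time in culture and the digestion step therefore cannot be told apart. The titles of the 2D libraries carry the letters 14A to 14F, and because the libraries 14A-C and 14D-F stood apart, calls against each are given beside those against all 6. The organoid libraries are described as independent experiments in the study, and what a 2D library stands for is not said. The p-values of edgeR measure a spread between libraries of the same group that is estimated over all 23 libraries and may be technical.

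Matrigel is a gel of basement membrane proteins, rich in laminin and collagen IV, in which epithelial cells sense matrix on one side and close around a lumen on the other. In such a cyst the cells become polarised, with tight junctions that seal the lumen from the basal side. Cells on plastic face no such gel, spread and divide as a flat layer. The pancreatic duct epithelium, which KC tumours resemble, secretes bicarbonate-rich fluid and mucins, and the ducts of KC mice often take on features of gut and stomach linings.

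The 3 libraries 14A-C differed from all other libraries used here before any gene was tested. They held 1221451 to 1382736 counts, against 1649327 to 2091391 in 14D-F and 1612870 to 2265047 in Matrigel, and each count stands for 1 captured RNA molecule. Ribosomal protein genes took 22.3 to 23% of the counts in 14A-C, 12.2 to 13.3% in 14D-F and 8.34 to 10.2% in Matrigel. Mitochondrially encoded genes took 4.99 to 5.76%, 2.51 to 3.01% and 4.31 to 4.84%, and genes with under 1000 exon bases took 10.8 to 11.5%, 7.48 to 7.63% and 7.81 to 8.46%. Across genes, log2 levels correlated between 14A-C and Matrigel libraries with r from 0.882 to 0.905, between 14D-F and Matrigel with r from 0.938 to 0.947, and between 14A-C and 14D-F with r from 0.917 to 0.934. Fits against each 2D set are given beside the results that they change. Fits with the trend with gene length removed are given beside some of the results. The part of the other features in a result was not tested.

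**Figure D1:**
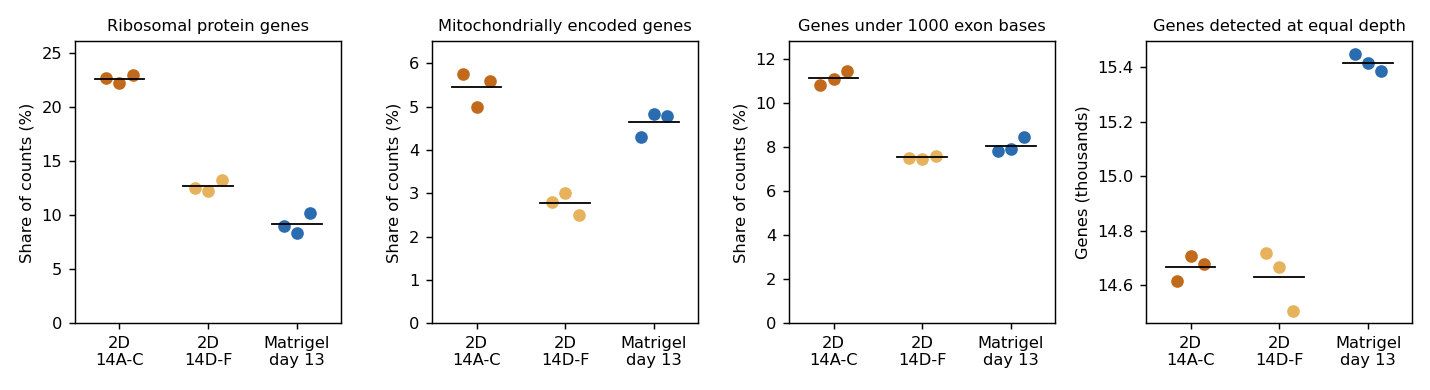
Each point is 1 library, with the mean of its set as a line, for the 3 libraries 2D 14A-C, the 3 libraries 2D 14D-F and the 3 Matrigel libraries. The panels give the share of counts (in %) in ribosomal protein genes, in mitochondrially encoded genes and in genes with under 1000 exon bases, all from an axis that starts at 0, and the number of genes expected at the smallest depth of the 9 libraries, on an axis that does not. The 14A-C libraries lie highest in the first 3 panels, and in the fourth the Matrigel libraries lie above all 6 of the 2D libraries.

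More genes were detected in the organoids at equal depth. Thinned to 1221451 counts, the Matrigel libraries were expected to hold 15386 to 15447 genes and the 2D libraries 14507 to 14718, with means of 15416 ± 30.9 (SD, n = 3) and 14649 ± 78.7 (SD, n = 6). The difference of 767 genes had an exact permutation p of 0.0119 (2-sided, 84 assignments, the smallest p possible) and an adjusted p of 0.0357 over 3 such tests. The share of the 100 most abundant genes was 27.3% (SD 1.21) over the 3 organoid libraries and 33% (SD 6.58) over the 6 flat cultures, with an exact permutation p of 0.298. Its mean was 39% in 14A-C and 27% in 14D-F. The mitochondrial share, 4.64% ± 0.292 against 4.11% ± 1.5 (SD), lay between the 2D sets and gave an exact permutation p of 0.512.

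Both groups carried the markers of duct cells. Of 12 genes that mark ducts and simple epithelia, summed levels were 23709 to 25662 CPM in 2D and 20293 to 22271 CPM in Matrigel (counts per 1000000 after scaling with edgeR's TMM factors), and Cldn4 alone had at most 1 count in each library. Spp1, the secreted protein osteopontin, made up much of these sums, and the other 11 genes summed to 8707 to 12070 CPM in 2D and 12780 to 14230 CPM in Matrigel. Of the 11 tested duct markers 6 were called higher and 1 was called lower. Endothelial and endocrine markers were at or near 0, with 3 of 6 and 2 of 2 genes in the table without a count in the 9 libraries. Fibroblast markers summed to 61.5 to 187 CPM in 2D and 58.9 to 83.9 CPM in Matrigel, none of the 3 tested was called, and Col1a1 had at most 7 counts. Acinar markers reached 4.57 to 20.4 CPM in 2D and 6.69 to 11.7 CPM in Matrigel. The 4 immune markers in the table summed to 4.11 to 18.3 CPM in 2D and 30.3 to 36.6 CPM in Matrigel. Ptprc, the common leukocyte antigen, had at most 2 counts in any of the 9 libraries. Cd68, a lysosomal protein of macrophages that other cells also make, had 56 to 83 counts in Matrigel and 7 to 24 in 2D and was called higher (log2 fold change 1.85, SE 0.27, edgeR adjusted p = 1.87e-05). In bulk RNA, more cells of a kind and more RNA per cell cannot be told apart.

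Matrigel organoids and 2D cells differed in 4680 of the 11144 genes tested (42%) at an adjusted p under 0.1 in edgeR's quasi-likelihood test, 2236 (20.1%) higher in Matrigel and 2444 (21.9%) lower. With library size alone as the scaling, which moved the median log2 fold change of all genes from −0.02 to 0.25, the split was 3481 higher and 1059 lower, so that directions of single genes with small changes rest on the scaling. The 3 Matrigel libraries lay above or below all 6 of the 2D libraries in 2975 genes (26.7%), and 2843 of these were called (25.5% of all genes tested). Against 14A-C alone 5747 genes were called (51.6%), 2989 higher (26.8%) and 2758 lower (24.7%), and against 14D-F alone 3984 (35.8%), 1855 higher (16.6%) and 2129 lower (19.1%). Both comparisons use the same Matrigel libraries. Called the same way against both 2D sets were 2551 genes (22.9%), 1359 of them higher (12.2%) and 1192 lower (10.7%), while 185 genes (1.66%) were called in opposite directions. Gene lists are described by these calls and by the median log2 fold change of their tested genes, beside medians over all genes of −0.02 against the 6 2D libraries, 0.09 against 14A-C and −0.03 against 14D-F. For every list below with 0 genes in a direction, the count in that direction was also 0 at an unadjusted p under 0.05 in edgeR and 0 in DESeq2, except for the Myc and ribosome biogenesis genes, where each gave 1 higher gene. Where a list had 0 genes in a direction against 14A-C or 14D-F, the count at an unadjusted p under 0.05 was 0 as well. Of the tested genes 115 would not have passed the filter on low counts without the Matrigel libraries, 51 of them called, all higher. The 5 of these that are described, Ltf, Lcn2, C3, Pou2f2 and Ltbp2, are given as counts and as a ratio of summed scaled counts with an exact binomial interval for counting error only, without a p. Besides the mucosal defence list, 1 such gene was called higher in each of the mucin, protease, chemokine, interferon, antioxidant and TGF-beta lists. Their counts of higher genes include it and are to that extent a description.

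**Figure D2:**
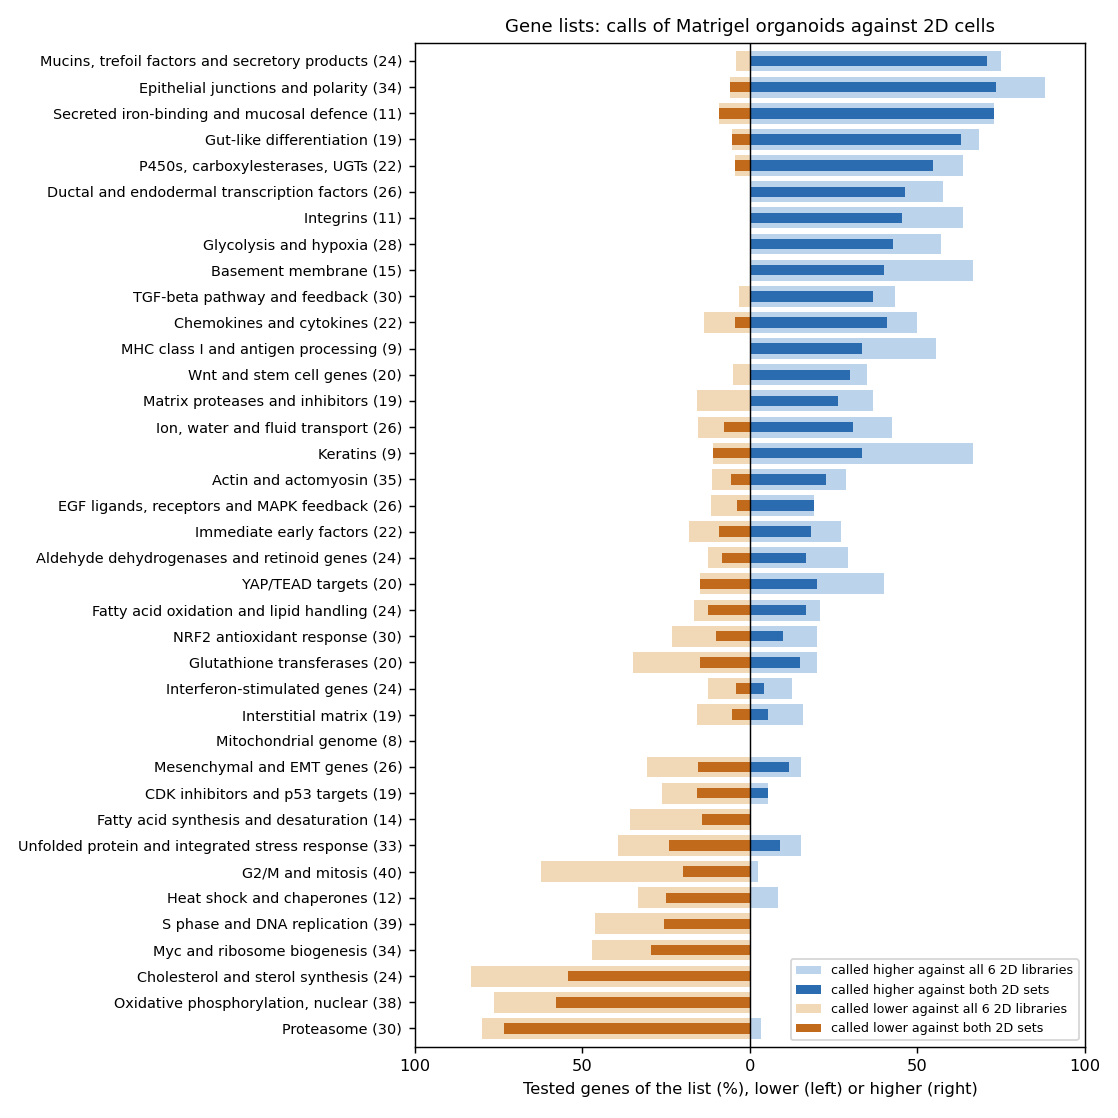
Bars give the share (in %) of the tested genes of each list, whose number stands in brackets, that was called lower (to the left) or higher (to the right) in Matrigel organoids. Pale bars are calls against all 6 of the 2D libraries and dark bars calls made the same way against 14A-C and against 14D-F. Mucin, junction and mucosal defence genes lie at the top, with 17 of 24, 25 of 34 and 8 of 11 genes higher against both 2D sets, and proteasome, respiratory chain and sterol genes at the bottom, with 22 of 30, 22 of 38 and 13 of 24 lower against both.

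Genes of the secreted and membrane-bound defence of mucosal surfaces held the highest fold changes. Of 11 tested genes of that list, 8 were higher, 1 was lower and 2 were not called, with a median log2 fold change of 3.70 (2.86 against 14A-C and 4.46 against 14D-F), and the 8 higher genes were higher against both 2D sets. Of the 8 higher genes 3 passed the filter through Matrigel alone, so that the count and the median are a description. Duox2, a membrane oxidase that releases hydrogen peroxide at the luminal face of gut and airway epithelia, had 88.1, 95 and 79.8 CPM in the 3 Matrigel libraries, and 0.96, 1.8 and 5.82 CPM as the lowest, median and highest of the 6 2D libraries. No 2D library had more than 6 counts of it (log2 fold change 5.31, SE 0.307, edgeR adjusted p = 2.53e-12). Duoxa2, the factor that carries Duox2 to the cell surface, followed with 189.6, 214 and 199.9 CPM in Matrigel and 4.8, 8.09 and 13.8 CPM as the lowest, median and highest 2D level (log2 fold change 4.70, SE 0.302, edgeR adjusted p = 2.16e-11). For both genes the Matrigel libraries lay far above all 2D libraries. A lack of overlap was required by the rule that named the 12 highest and 12 lowest genes, Duox2 and Duoxa2 among them. Organoids grown in collagen gels to day 13, 5 libraries of the same batch that serve here as a side view, had between 4.64 and 11 CPM of Duox2 and lay far below Matrigel too (Matrigel over collagen 3.60 on the log2 scale, edgeR adjusted p = 5.98e-10).

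Duox2 and Duoxa2 lie head to head on chromosome 2, Duox2 at chromosome 2 from 122279247 to 122298449, minus strand and Duoxa2 at chromosome 2 from 122298900 to 122302885, plus strand (GRCm38), with 673 bases between their RefSeq starts. Their upstream sequences are shown because the genes of an enzyme and of its partner rose together from neighbouring starts. Each is the 250 bases before the start in the direction of its gene (RefSeq, GRCm38.p6), chr2:122298228-122298477 on the minus strand and chr2:122298650-122298899 on the plus strand, and 172 bases lie between them. GENCODE places the start of Duox2 farther out, so that 222 of the 250 bases of its window lie inside the gene as given above, whereas the start of Duoxa2 is the same in both annotations. Capitals mark the TATA box letters TATAAA and the octamer ATGCAAAT that POU factors bind, on either strand, which were searched after the windows had been read.
Duox2: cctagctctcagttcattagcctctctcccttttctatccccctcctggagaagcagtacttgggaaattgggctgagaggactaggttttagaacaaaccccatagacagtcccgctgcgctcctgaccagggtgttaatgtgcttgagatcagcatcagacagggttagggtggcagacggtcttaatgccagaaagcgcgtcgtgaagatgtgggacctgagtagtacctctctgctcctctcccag
Duoxa2: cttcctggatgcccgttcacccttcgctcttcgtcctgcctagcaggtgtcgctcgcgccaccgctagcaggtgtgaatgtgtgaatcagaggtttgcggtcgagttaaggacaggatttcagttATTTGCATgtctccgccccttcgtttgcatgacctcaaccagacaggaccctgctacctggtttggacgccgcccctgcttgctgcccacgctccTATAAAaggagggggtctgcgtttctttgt
The Duoxa2 window held each of them once and the Duox2 window neither. Over all RefSeq windows of this length TATAAA stood in 14.3% of symbols and ATGCAAAT in 1.81%, and over tested genes in 7.91% and 1.48%. A match is a description of the letters and not of a site in use.

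Proteins that bind iron or carry antibodies rose as well. Ltf, the iron-binding lactotransferrin of milk and mucus, had 115, 120.3 and 96.2 CPM in Matrigel and 3.36, 4.43 and 6.9 CPM as the lowest, median and highest in 2D, a ratio of 23.8 with a 95% interval from 17.5 to 33.4. Its level in collagen organoids was between 0.479 and 2.78 CPM. Lcn2, lipocalin 2, which withholds bacterial iron carriers, had 29.9, 31.4 and 40.8 CPM in Matrigel. In 14A-C it had 0, 5.82 and 3.94 CPM, and the 3 libraries 14D-F had no count of it, so that Matrigel was at least 22.3-fold higher than the level of 3 counts per library there. Over all 6 of the 2D libraries, which held 0 to 6 counts, the ratio was 29.8 with a 95% interval from 15.9 to 63. Pigr, the receptor that carries IgA across epithelia, had 108, 116 and 93.8 CPM against 2.94, 4.07 and 9.86 CPM as the lowest, median and highest 2D level (log2 fold change 4.49, SE 0.204, edgeR adjusted p = 6.13e-14). C3, the central complement component, had 31 to 51 counts per Matrigel library and 0 to 6 per 2D library, a ratio of 13.6 with a 95% interval from 7.65 to 26.1. Wfdc2, a protease inhibitor of the whey acidic protein family, was the 1 gene of the list that fell, from between 1317 and 2421 CPM in 2D to between 848 and 1156 CPM in Matrigel (log2 fold change −0.93, SE 0.191, edgeR adjusted p = 0.000701).

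**Figure D3:**
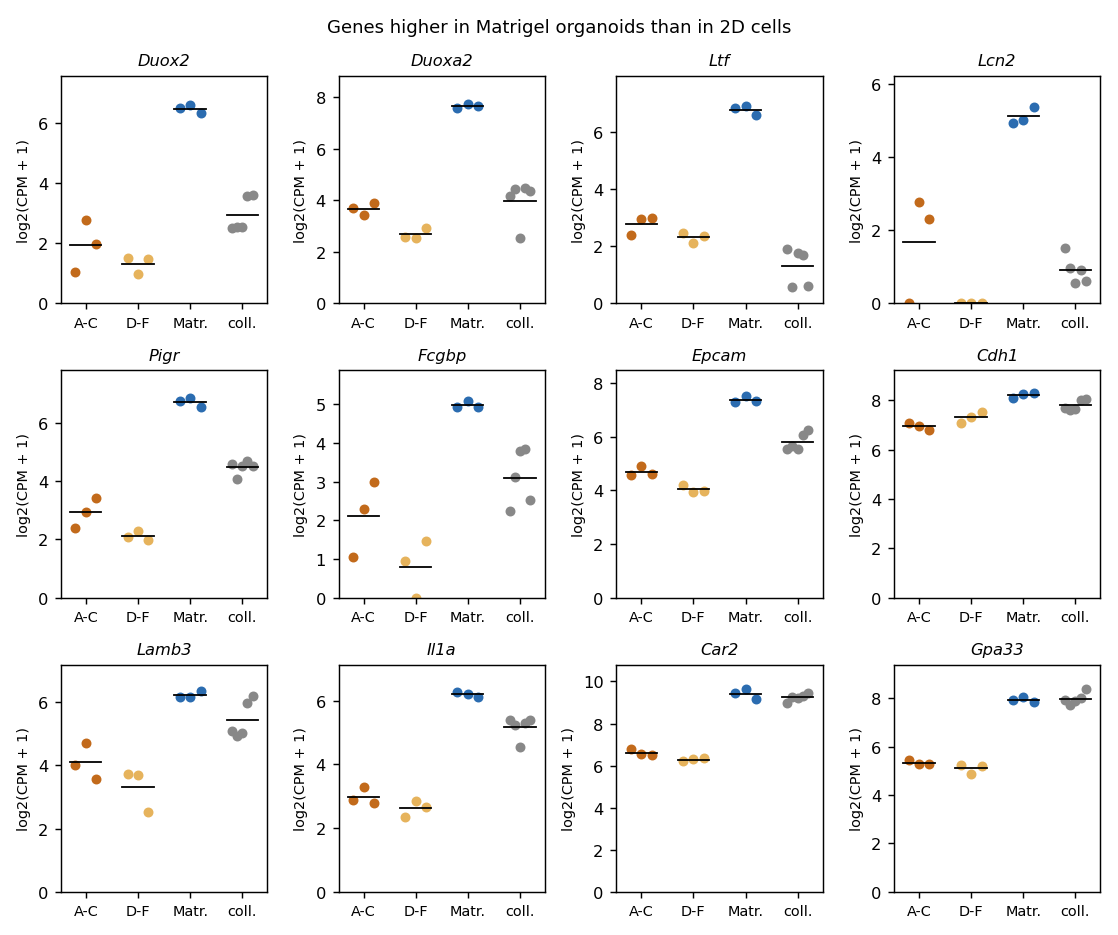
Levels of 12 genes as log2(CPM + 1), 1 point per library and the mean as a line, in 2D 14A-C (A-C, 3 libraries), 2D 14D-F (D-F, 3), Matrigel organoids of day 13 (Matr., 3) and collagen organoids of day 13 of the same batch (coll., 5). In each panel all 3 Matrigel libraries lie above all 6 of the 2D libraries, while Car2, Gpa33 and Lamb3 overlap between Matrigel and collagen, and Ltf lies lower in collagen than in 2D.

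Mucus genes moved upwards. Of 24 tested genes for mucins, trefoil factors and secretory products, 18 were higher, 1 was lower and 17 were higher against both 2D sets (20 higher and 2 lower against 14A-C and 17 and 1 against 14D-F), with a median of 1.32. Fcgbp, a large protein that crosslinks mucus, had 29.5, 33.1 and 29.7 CPM in Matrigel and 0, 1.42 and 6.9 CPM as the lowest, median and highest in 2D, without overlap (log2 fold change 3.94, SE 0.557, edgeR adjusted p = 1.24e-05). The membrane mucin gene Muc3 had 68.9, 73.7 and 88.6 CPM against 2.35, 3.6 and 6.9 CPM (log2 fold change 4.23, SE 0.358, edgeR adjusted p = 3.77e-09). Muc3a had a log2 fold change of 4.03 (adjusted p = 2.31e-08 from edgeR). Muc3 and Muc3a are near-identical neighbours, so that their counts can be split by chance or by rule, and neither value is certain alone. Spink4, a trypsin inhibitor of goblet cells, was called lower (log2 fold change −0.75, SE 0.312, edgeR adjusted p = 0.0635), but its levels were 278 to 309 CPM in 14A-C, 96.3 to 119 in 14D-F and 97.7 to 136 in Matrigel, with a log2 fold change of 0.13 against 14D-F (adjusted p = 0.586 from edgeR). The call of Spink4 was also lost without any one of 2D replicates 1, 2 and 3 or of Matrigel replicates 1 and 2 (adjusted p from 0.141 to 0.217 in edgeR). Clca3b, of the family of mucus-associated chloride channel regulators, had 67 to 90 counts in Matrigel libraries and 0 to 6 in 2D libraries (log2 fold change 4.06, SE 0.335, edgeR adjusted p = 2.21e-09). Lypd8, which keeps flagellated bacteria off the colon surface, had 89 to 144 and 2 to 9 (log2 fold change 3.92, SE 0.338, edgeR adjusted p = 4.78e-09).

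Genes of gut epithelium rose with them. In that list 13 of 19 tested genes were higher and 1 was lower, 12 of them higher against both 2D sets (15 higher and 2 lower against 14A-C and 12 and 1 against 14D-F), with a median of 0.93. Gpa33, an adhesion protein of intestinal epithelium, had 246, 266 and 226 CPM in Matrigel and 28.3, 37.2 and 43 CPM as the lowest, median and highest in 2D (log2 fold change 2.77, SE 0.143, edgeR adjusted p = 3.13e-13). Its level in collagen organoids, between 209.6 and 328 CPM, did not differ from Matrigel beyond the spread (log2 fold change −0.04, adjusted p = 0.905 from edgeR). Prap1, a lipid-binding protein secreted by enterocytes, rose from between 26.9 and 44 CPM in 2D to between 279 and 324 CPM in Matrigel (log2 fold change 3.22, SE 0.341, edgeR adjusted p = 1.85e-07). Per library it had 232 to 484 counts in day 13 collagen organoids, 551 to 743 in Matrigel and 29 to 66 in 2D. The 1 lower gene was Fabp1, the liver and gut fatty acid binding protein, whose 14A-C libraries overlapped Matrigel (32.2, 27.2 and 17.7 CPM in 14A-C, 38.8, 42.2 and 48.3 in 14D-F and 16.1, 14.4 and 21 in Matrigel, log2 fold change −1.07, SE 0.211, edgeR adjusted p = 0.00046).

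Junction genes had the highest share of higher calls among the 38 lists. Of 34 tested genes for epithelial junctions and polarity, 30 were higher, 2 were lower and 2 were not called, with 25 higher against both 2D sets (30 higher and 2 lower against 14A-C and 27 and 2 against 14D-F) and medians of 0.92 against all 2D libraries, 1.34 against 14A-C and 0.74 against 14D-F. Epcam, an epithelial adhesion molecule at chromosome 17 from 87635979 to 87651129, plus strand, had 155, 183 and 158 CPM in Matrigel. In 2D its levels were 22.6, 29.1 and 23.7 CPM in 14A-C and 17.4, 14.4 and 14.7 CPM in 14D-F (log2 fold change 3.09, SE 0.194, edgeR adjusted p = 1.39e-11). The 3 Matrigel libraries lay above the 6 2D libraries and above the collagen organoids, which had between 45.5 and 75.1 CPM (Matrigel over collagen 1.56 on the log2 scale, edgeR adjusted p = 8.64e-07). St14, the membrane protease matriptase, had 31 to 57 counts per Matrigel library and 1 to 5 per 2D library (log2 fold change 3.34, SE 0.361, edgeR adjusted p = 2.44e-07). Cdh1, the gene of E-cadherin at chromosome 8 from 106603351 to 106670246, plus strand, had 268, 303 and 313 CPM in Matrigel, 133, 123 and 109 CPM in 14A-C and 135, 160.4 and 180.2 CPM in 14D-F (log2 fold change 1.06, SE 0.138, edgeR adjusted p = 4.14e-06). The 2 lower genes were both claudins. Cldn2, which forms pores for cations and water, fell from between 161 and 246 CPM in 2D to between 109 and 129 CPM in Matrigel (log2 fold change −0.81, SE 0.191, edgeR adjusted p = 0.00216). Cldn6, a claudin of embryonic epithelia, had 7.76, 12.2 and 16.1 CPM as the lowest, median and highest in 2D and 8.26, 4.8 and 6.41 CPM in Matrigel, with overlap (log2 fold change −0.90, SE 0.264, edgeR adjusted p = 0.0109).

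Keratins, the intermediate filaments of epithelia, divided. Of 9 tested, 6 were higher and 1 was lower, and 3 were higher against both 2D sets (6 higher and 1 lower against 14A-C and 4 and 1 against 14D-F). Krt20, a keratin of gut and urothelial surface cells, had 868, 956 and 781 CPM in Matrigel and 198, 261 and 342 CPM as the lowest, median and highest in 2D (log2 fold change 1.73, SE 0.141, edgeR adjusted p = 2.07e-09). Collagen organoids of day 13 had 1677 to 2069 counts of it per library, against 1341 to 2205 in Matrigel. Krt8 and Krt19, keratins of simple and ductal epithelia, had log2 fold changes of 0.74 and 0.57 (adjusted p = 0.00124 and 0.00386 from edgeR), larger against 14A-C (1.11 and 0.88) than against 14D-F (0.45 and 0.32). Krt7, the other ductal keratin, was not called (log2 fold change 0.06, SE 0.151, edgeR adjusted p = 0.782), with 1309 to 1401 CPM in 14A-C, 2008 to 2080 in 14D-F and 1647 to 1862 in Matrigel. The lower gene was Krt23, with 82.5 to 117 CPM in 2D and 65.3 to 77.5 CPM in Matrigel (log2 fold change −0.45, SE 0.123, edgeR adjusted p = 0.00692). With library size alone as the scaling, 6 keratins were called higher and 0 lower, and the call of Krt23 was lost (adjusted p = 0.435 from edgeR).

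Mesenchymal genes did not follow one direction. Of 26 tested, 4 were higher and 8 lower, with a median of −0.47 (−0.82 against 14A-C and 0.03 against 14D-F), and 3 were higher and 4 lower against both 2D sets (3 higher and 17 lower against 14A-C and 5 and 4 against 14D-F). With library size alone as the scaling 5 were called higher and 4 lower, and with the trend with gene length removed 3 and 4. Vim, the gene of vimentin, had 1019, 929 and 1028 CPM in Matrigel and 1224, 1317 and 1489 CPM as the lowest, median and highest in 2D, lower without overlap (log2 fold change −0.42, SE 0.117, edgeR adjusted p = 0.00722), although with library size alone its log2 fold change was −0.12 (adjusted p = 0.476 from edgeR). Cdh2, the gene of N-cadherin, had 11 to 28 counts per Matrigel library and 9 to 17 per 2D library and was not called (log2 fold change −0.06, SE 0.269, edgeR adjusted p = 0.888). Spp1, osteopontin, a secreted phosphoprotein that duct cells also make, fell from between 12500 and 15760 CPM in 2D to between 7436 and 8044 CPM in Matrigel (log2 fold change −0.90, SE 0.138, edgeR adjusted p = 3.14e-05). Prrx1, a mesenchymal transcription factor, had 19.4 to 26.9 CPM in 14A-C, 11 to 14.2 in 14D-F and 6.99 to 9.59 in Matrigel (log2 fold change −0.96, SE 0.32, edgeR adjusted p = 0.0221).

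The organoids, grown inside basement membrane proteins, held more transcripts of basement membrane genes. Of 15 tested, 10 were higher and 0 lower, 6 of them higher against both 2D sets (10 higher and 0 lower against 14A-C and 8 and 0 against 14D-F), with a median of 0.49. Under removal of the trend with gene length 5 were called higher and 0 lower. Lamb3, a chain of laminin 332, the laminin of epithelial anchorage, had 71.2, 71.1 and 80.4 CPM in Matrigel, 15, 25.2 and 10.8 CPM in 14A-C and 12.3, 12 and 4.71 CPM in 14D-F (log2 fold change 2.55, SE 0.295, edgeR adjusted p = 6.45e-07). Lama3, its alpha chain, had 23 to 41 counts per Matrigel library and 1 to 2 per 2D library, a ratio of summed scaled counts of 15.9 with a 95% interval from 7.73 to 37.9 (exact binomial, counting error only). The integrins, a family of receptors that is not confined to basement membrane proteins, had 7 of 11 tested genes higher and 0 lower (7 higher and 0 lower against 14A-C and 7 and 0 against 14D-F). Itgb4, which binds laminin 332 in hemidesmosomes, rose from between 67.9 and 98.9 CPM in 2D to between 185 and 210.1 CPM in Matrigel (log2 fold change 1.196, SE 0.156, edgeR adjusted p = 4.15e-06). Itgb6, of the TGF-beta activating integrin of epithelia, had 44.1, 40.5 and 37.9 CPM against 5.82, 10.8 and 16.8 CPM as the lowest, median and highest 2D level (log2 fold change 1.83, SE 0.234, edgeR adjusted p = 3.08e-06).

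Interstitial matrix genes were called 3 higher and 3 lower of 19 tested, and the 2D sets differed. With library size alone 3 were higher and 1 lower, and with the length trend removed 1 and 7. Against 14A-C 1 was higher and 13 were lower (median −1.04), and against 14D-F 4 were higher and 1 was lower (median 0.14). Ecm1, a secreted glycoprotein, was higher against both, with 356 to 482 CPM in Matrigel and 131 to 180.4 CPM in 2D (log2 fold change 1.48, SE 0.135, edgeR adjusted p = 1.23e-08). Sparc, a matrix protein that binds collagen, had 259.9, 220.2 and 226 CPM in 14A-C, 95.4, 89.8 and 123 in 14D-F and 115, 83.7 and 96.2 in Matrigel, so that its call (log2 fold change −0.74, SE 0.282, edgeR adjusted p = 0.0427) came from 14A-C. Thbs1, thrombospondin 1, was lower against both 2D sets, with log2 fold changes of −1.41 against 14A-C (edgeR adjusted p = 6.16e-05) and −0.70 against 14D-F (adjusted p = 0.0448). Among matrix proteases and inhibitors 7 of 19 were higher and 3 lower, of which 5 and 0 against both 2D sets (6 higher and 5 lower against 14A-C and 7 and 0 against 14D-F), and 9 and 0 with library size alone. Mmp15, a membrane-bound metalloprotease, rose from between 14 and 28.8 CPM in 2D to between 64.1 and 69.3 CPM in Matrigel (log2 fold change 1.51, SE 0.188, edgeR adjusted p = 2.02e-06). Timp1 and Timp2, inhibitors of metalloproteases, were called lower (log2 fold change −0.68, adjusted p = 0.0152, and −0.36, adjusted p = 0.0272, both from edgeR) and passed against 14A-C alone, not against 14D-F (−0.25, adjusted p = 0.229, and −0.11, adjusted p = 0.386). Without Matrigel replicate 2 the calls of Timp1 and Timp2 were lost (edgeR adjusted p = 0.116 and 0.117), and that of Sparc was lost without 2D replicate 1 or 3 or Matrigel replicate 2 or 3 (from 0.102 to 0.182).

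Transport genes of the duct were higher in part. Of 26 tested, 11 were higher and 4 lower, and 8 were higher and 2 lower against both 2D sets (16 higher and 2 lower against 14A-C and 9 and 6 against 14D-F). Library size alone gave 14 higher and 2 lower. Car2, the cytosolic carbonic anhydrase that supplies bicarbonate, had 704, 801 and 573 CPM in Matrigel. The lowest, median and highest 2D levels were 73.1, 85.4 and 108 CPM, far below (log2 fold change 3.00, SE 0.143, edgeR adjusted p = 8.55e-14). Kcnq1, a potassium channel of secretory epithelia, rose from between 5.3 and 9.7 CPM in 2D to between 18.1 and 32.7 CPM in Matrigel (log2 fold change 1.96, SE 0.287, edgeR adjusted p = 1.87e-05). It was at between 1.79 and 7.88 CPM in collagen (Matrigel over collagen 2.66 on the log2 scale, edgeR adjusted p = 8.27e-07). Of the water channels, Aqp5 had 38.7, 40.7 and 47.3 CPM in 14A-C, 95.9, 88.3 and 96 in 14D-F and 24.4, 14 and 22.7 in Matrigel and was lower than both 2D sets (log2 fold change −1.80, SE 0.303, edgeR adjusted p = 9.53e-05). Aqp8 had 59.1, 58.2 and 60.1 CPM in 14A-C, 232, 257 and 249 in 14D-F and 70.8, 61.9 and 60.6 in Matrigel, so that Matrigel lay below 14D-F (log2 fold change −1.93, adjusted p = 2.55e-11 from edgeR) but not below 14A-C (0.13, adjusted p = 0.652).

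Transcription factors of duct and endoderm were higher or not called against the 6 2D libraries together. Of 26 tested, 15 were higher and 0 lower, 12 of them higher against both 2D sets and 3 called in opposite directions (19 higher and 1 lower against 14A-C and 14 and 3 against 14D-F), with a median of 0.44. Onecut2, a factor of endodermal epithelia, had 182, 228 and 203 CPM in Matrigel and 68, 80.3 and 109.9 CPM as the lowest, median and highest in 2D (log2 fold change 1.29, SE 0.138, edgeR adjusted p = 2.15e-07). Foxa3, a forkhead factor of liver and gut, had 9.67, 8.73 and 16.8 CPM in 14A-C, 6.39, 8.64 and 3.53 in 14D-F and 15.7, 20.9 and 18.1 in Matrigel, overlapped with 14A-C and passed against 14D-F alone (log2 fold change 1.13, SE 0.306, edgeR adjusted p = 0.00643 against all 6). Outside this list Pou2f2, the gene of the octamer-binding factor Oct-2 best known from lymphocytes, was among the 12 highest genes, with 44 to 49 counts per Matrigel library and 0 to 4 per 2D library, a ratio of 19.1 with a 95% interval from 10.1 to 40.7.

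Inflammatory signals rose more often than they fell. Among chemokines and cytokines 11 of 22 tested were higher and 3 lower, and 9 were higher and 1 lower against both 2D sets (9 higher and 6 lower against 14A-C and 15 and 2 against 14D-F). Il1a, the alarm cytokine interleukin 1 alpha, had 77.1, 72.8 and 68.2 CPM in Matrigel and 4.11, 6.08 and 8.73 CPM as the lowest, median and highest in 2D (log2 fold change 3.62, SE 0.205, edgeR adjusted p = 1.8e-12). Cxcl5, which attracts neutrophils, had 1515, 1606 and 1561 CPM in Matrigel, 489.7, 480.2 and 505 in 14A-C and 319, 314 and 331 in 14D-F (log2 fold change 1.95, SE 0.211, edgeR adjusted p = 2.44e-07). Collagen organoids had between 156 and 379 CPM of it (Matrigel over collagen 2.55 on the log2 scale, edgeR adjusted p = 1.74e-08). For Il1a and Cxcl5 the 3 Matrigel libraries lay above all 2D libraries. Icam1, a leukocyte adhesion molecule, was lower (log2 fold change −0.63, SE 0.191, edgeR adjusted p = 0.0128) and passed against 14D-F alone. Interferon-stimulated genes showed 3 higher and 3 lower of 24 tested, beside 20.1% higher and 21.9% lower over all genes. The balance of calls turned between the 2D sets, with 1 higher and 7 lower against 14A-C and 7 and 1 against 14D-F, and library size alone gave 7 higher and 2 lower. Removal of the trend with gene length gave 4 higher and 1 lower. Oasl1, a gene of this list, rose from between 30.1 and 41.3 CPM in 2D to between 63.5 and 80.7 CPM in Matrigel (log2 fold change 1.08, SE 0.126, edgeR adjusted p = 6.47e-07). Bst2, which tethers viruses to the cell, fell from between 70.1 and 126 CPM in 2D to between 49.3 and 51.9 CPM in Matrigel (log2 fold change −0.91, SE 0.158, edgeR adjusted p = 0.000128). That call was lost when the trend with gene length was removed (log2 fold change −0.17, adjusted p = 0.353 from edgeR). Of 9 genes for MHC class I and antigen processing, 5 were higher and 0 lower (5 higher and 1 lower against 14A-C and 3 and 0 against 14D-F). Tapbp, which loads peptides on MHC class I, had 197 to 256 CPM in Matrigel and 112 to 183 in 2D (log2 fold change 0.61, SE 0.141, edgeR adjusted p = 0.00182). H2-T23, a non-classical class I gene with close relatives, had 81.8 to 95 CPM in Matrigel and 40.6 to 57.1 CPM in 2D (log2 fold change 0.86, SE 0.125, edgeR adjusted p = 1.75e-05).

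Enzymes of drug and retinoid metabolism changed selectively. Among cytochromes P450, carboxylesterases and UDP-glucuronyltransferases 14 of 22 tested were higher and 1 was lower, 12 higher against both 2D sets (13 higher and 1 lower against 14A-C and 14 and 2 against 14D-F). Ces2a, an intestinal carboxylesterase, had 99.9, 112 and 80.4 CPM in Matrigel and 5.89, 10.9 and 16.1 CPM as the lowest, median and highest in 2D (log2 fold change 3.30, SE 0.519, edgeR adjusted p = 4.46e-05). Its relative Ces2c had 13 to 32 against 1 to 6 counts, with log2 fold changes of 2.41 against 14A-C (edgeR adjusted p = 0.00267) and 2.53 against 14D-F (adjusted p = 0.0004). These genes have near copies that can share reads. The lower gene was Cyp4b1, a fatty acid hydroxylase (30.6 to 56.9 CPM in 2D, 19.7 to 26.6 in Matrigel, log2 fold change −0.80, SE 0.222, edgeR adjusted p = 0.00763). Aldh1a3, which makes retinoic acid, had 95.6, 91.6 and 101 CPM in Matrigel, 23.6, 16.5 and 22.7 in 14A-C and 23.7, 23 and 25.3 in 14D-F (log2 fold change 2.08, SE 0.16, edgeR adjusted p = 7.49e-10). Aldh1a1, of the same activity, rose by 1.57 on the log2 scale (adjusted p = 0.000328 from edgeR). Rbp4, which carries retinol, was lower than both 2D sets, with log2 fold changes of −2.66 against 14A-C (edgeR adjusted p = 3.67e-18) and −0.46 against 14D-F (adjusted p = 0.0285). Of 24 tested aldehyde dehydrogenase and retinoid genes 7 were higher and 3 lower (9 higher and 4 lower against 14A-C and 5 and 6 against 14D-F), and 8 and 1 with library size alone.

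Glutathione transferases and antioxidant genes were mixed, with 4 higher and 7 lower of 20 and 6 higher and 7 lower of 30. With library size alone these counts became 9 and 4, and 7 and 3. The glutathione transferases showed 4 higher and 5 lower against 14A-C and 8 and 6 against 14D-F, and the antioxidant genes 9 higher and 8 lower against 14A-C and 7 and 11 against 14D-F. Gstm1, a conjugating enzyme with close paralogs, had 262, 272 and 260.3 CPM in 14A-C, 642, 657 and 585 in 14D-F and 168, 164 and 144 in Matrigel (log2 fold change −1.50, SE 0.276, edgeR adjusted p = 0.00025). Mgst1, a membrane-bound relative, had 836, 1032 and 1057 CPM in 14A-C, 322, 318 and 376 in 14D-F and 196, 201 and 205 in Matrigel (log2 fold change −1.70, SE 0.304, edgeR adjusted p = 0.00018), with the order of the 2D sets reversed between the 2 genes. Both lay below all 2D libraries. Gsta1 rose from between 311 and 379 CPM in 2D to between 494 and 528 CPM in Matrigel (log2 fold change 0.57, SE 0.15, edgeR adjusted p = 0.00524) and stood at between 1384 and 2589 CPM in collagen (Matrigel over collagen −1.88 on the log2 scale, edgeR adjusted p = 1.87e-08). Abcc3, an export pump for conjugates, rose from between 46.6 and 64.4 CPM in 2D to between 140.4 and 171 CPM in Matrigel (log2 fold change 1.46, SE 0.158, edgeR adjusted p = 2.44e-07).

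Genes of cholesterol synthesis were lower as a group. Of 24 tested, 20 were lower, 0 were higher and 4 were not called, with 13 lower against both 2D sets (3 higher and 13 lower against 14A-C and 0 and 21 against 14D-F). The median log2 fold change was −0.88 against all 2D libraries, −0.33 against 14A-C and −1.12 against 14D-F. Scaled by library size alone, 12 were lower and 1 was higher. Insig1, which retains the sterol-sensing complex in the endoplasmic reticulum and is itself switched on by SREBP-2 when sterol is short, had 55.9, 71.5 and 66.4 CPM in Matrigel. Its 2D levels were 137, 139.7 and 136 CPM in 14A-C and 238, 239 and 231 CPM in 14D-F (log2 fold change −1.55, SE 0.183, edgeR adjusted p = 8.63e-07). Mvd, an enzyme of the mevalonate steps, had 28.3, 29.6 and 22.1 CPM in Matrigel, 47.3, 54.3 and 45.3 CPM in 14A-C and 95.9, 122 and 105 CPM in 14D-F (log2 fold change −1.59, SE 0.248, edgeR adjusted p = 3.77e-05). In both genes the 3 Matrigel libraries lay below all 6 of the 2D libraries. Hmgcs1, which makes the precursor of mevalonate, was chosen for its promoter rather than by its change, and it had 118, 114 and 115 CPM in Matrigel, 116, 146 and 134 in 14A-C and 210.1, 245 and 231 in 14D-F (log2 fold change −0.66, SE 0.184, edgeR adjusted p = 0.00773), with log2 fold changes of −0.19 against 14A-C (edgeR adjusted p = 0.243) and −0.98 against 14D-F (adjusted p = 4.98e-08).

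The windows before the starts of these 3 genes are shown because sterol genes are known to carry the SREBP element beside CCAAT boxes, which the factor NF-Y binds. They are the 250 bases before the RefSeq start in the direction of the gene (GRCm38.p6), Insig1 at chr5:28071162-28071411 on the plus strand, Mvd at chr8:122443423-122443672 on the minus strand and Hmgcs1 at chr13:119690101-119690350 on the plus strand. Capitals mark CCAAT and the SREBP element TCACNCCAC, on either strand, so that CCAAT on the other strand reads ATTGG. The GENCODE start is the same for Mvd, lies 49 bases inside the window of Insig1 and 28 bases beyond the RefSeq start of Hmgcs1.
Insig1: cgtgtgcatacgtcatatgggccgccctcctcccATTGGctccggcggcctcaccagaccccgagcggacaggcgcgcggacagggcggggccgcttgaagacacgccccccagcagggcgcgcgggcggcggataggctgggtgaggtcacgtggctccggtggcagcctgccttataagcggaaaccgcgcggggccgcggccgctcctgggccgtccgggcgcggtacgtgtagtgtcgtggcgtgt
Mvd: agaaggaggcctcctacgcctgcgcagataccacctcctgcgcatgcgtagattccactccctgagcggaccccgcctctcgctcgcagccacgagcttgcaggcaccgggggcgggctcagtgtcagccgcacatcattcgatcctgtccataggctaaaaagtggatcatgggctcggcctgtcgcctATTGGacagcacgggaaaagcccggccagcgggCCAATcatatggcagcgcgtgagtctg
Hmgcs1: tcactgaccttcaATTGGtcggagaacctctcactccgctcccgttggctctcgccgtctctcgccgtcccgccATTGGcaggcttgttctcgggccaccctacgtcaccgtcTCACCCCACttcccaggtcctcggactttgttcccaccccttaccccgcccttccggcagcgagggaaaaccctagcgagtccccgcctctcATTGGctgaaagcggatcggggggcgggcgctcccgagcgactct
CCAAT stood once before Insig1, at 2 places before Mvd and at 3 before Hmgcs1, and TCACNCCAC only before Hmgcs1. Of the tested sterol genes, 16 of 24 matched a RefSeq window by symbol, and 15 of these held CCAAT and 1 held TCACNCCAC. Among the called lower sterol genes CCAAT stood in 13 of 14. CCAAT was found in 37.5% of all symbols with a window and in 40.8% of the tested ones, TCACNCCAC in 1.22% of both. The longer SREBP elements that differ from these letters were not searched.

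Genes of fatty acid synthesis were lower mainly beside 14D-F. Among genes of synthesis and desaturation 5 of 14 were lower and 0 higher, 2 of them lower against both 2D sets (2 higher and 2 lower against 14A-C and 0 and 8 against 14D-F), and library size alone gave 2 lower and 1 higher. The median log2 fold change was 0.13 against 14A-C and −0.40 against 14D-F. Over all genes 21.9% were lower against the 2D libraries together, 24.7% against 14A-C and 19.1% against 14D-F. Scd1, which makes monounsaturated fatty acids, had 57.8, 49.3 and 60.02 CPM in Matrigel, 68.7, 78.6 and 85.8 in 14A-C and 138, 187 and 135 in 14D-F (log2 fold change −1.09, SE 0.218, edgeR adjusted p = 0.000556). Elovl6, which lengthens fatty acids, was lower as well (log2 fold change −0.87, SE 0.169, edgeR adjusted p = 0.000414). In the list of fatty acid oxidation and lipid handling 5 of 24 were higher and 4 lower (8 higher and 3 lower against 14A-C and 4 and 4 against 14D-F), and with library size alone 11 were higher and 1 lower.

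**Figure D4:**
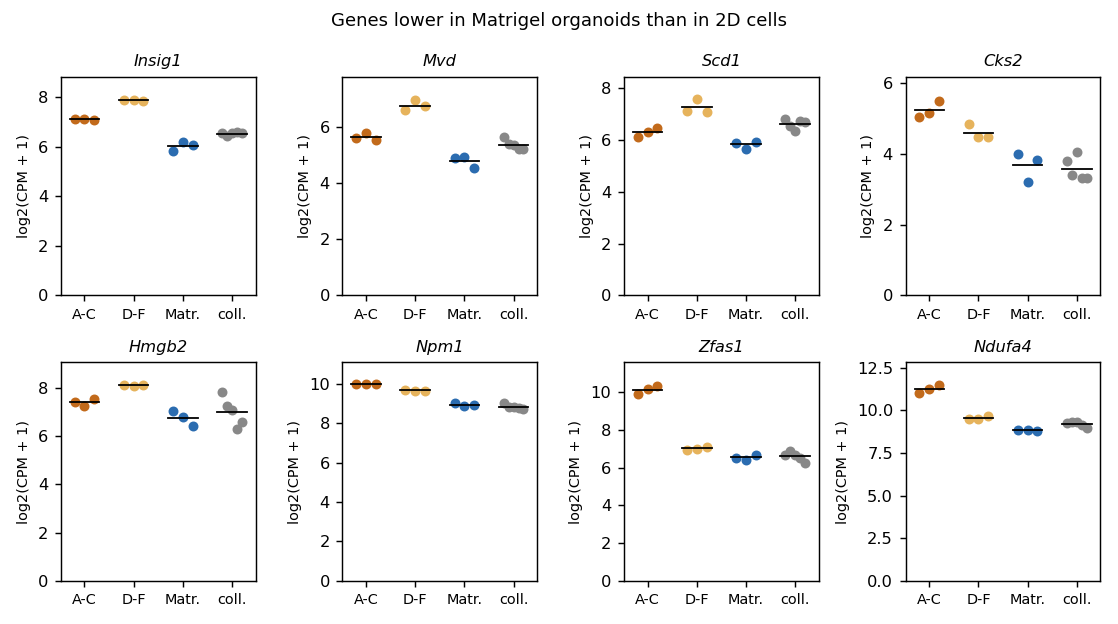
Levels of 8 genes as log2(CPM + 1), 1 point per library and the mean as a line, in 2D 14A-C (A-C, 3 libraries), 2D 14D-F (D-F, 3), Matrigel organoids of day 13 (Matr., 3) and collagen organoids of day 13 of the same batch (coll., 5). All 3 Matrigel libraries lie below all 6 of the 2D libraries in each panel. Insig1, Mvd, Scd1 and Hmgb2 are highest in 14D-F, and Zfas1 and Ndufa4 are far higher in 14A-C than in the other sets.

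Cell cycle genes were lower mainly beside 14D-F. Of 39 tested S phase genes 18 were lower and 0 higher, with 11 lower and 6 higher against 14A-C and 33 lower and 0 higher against 14D-F. Of 40 genes of G2/M and mitosis 25 were lower and 1 was higher, with 8 lower and 5 higher against 14A-C, 32 lower and 1 higher against 14D-F and 8 lower against both, beside 24.7% and 19.1% lower over all genes. Scaled by library size alone the counts of lower genes were 6 and 6 and those of higher genes 1 and 2. Mki67, the proliferation marker Ki-67, was not called, with 44.5, 44.5 and 26.8 CPM in Matrigel, 22.6, 20.4 and 22.7 in 14A-C and 42, 45.6 and 44.2 in 14D-F (log2 fold change 0.17, SE 0.305, edgeR adjusted p = 0.708). Cks2, a small subunit of cyclin-dependent kinases, had 15, 8.28 and 13.4 CPM in Matrigel and 21.2, 30.04 and 44.4 CPM as the lowest, median and highest in 2D (log2 fold change −1.26, SE 0.231, edgeR adjusted p = 0.000249). Hmgb2, a chromatin protein of dividing cells, had 132, 109.9 and 83.9 CPM in Matrigel, 168, 150.3 and 185 in 14A-C and 274, 264 and 279 in 14D-F (log2 fold change −1.03, SE 0.246, edgeR adjusted p = 0.00255). Both lay below all 2D libraries. Gmnn, geminin, which blocks a new round of replication, fell from between 68.9 and 138 CPM in 2D to between 41.9 and 60.02 CPM in Matrigel (log2 fold change −0.95, SE 0.207, edgeR adjusted p = 0.00118). The 1 higher gene was Kif23, a motor of cytokinesis (24.2 to 51.1 CPM in 2D, 51.4 to 61.4 in Matrigel, log2 fold change 0.52, SE 0.195, edgeR adjusted p = 0.043), which passed against 14A-C alone and was lost without Matrigel replicate 1 (edgeR adjusted p = 0.146).

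Before the start of Hmgb2 both letters known from cell cycle promoters occur, the CCAAT box and the CHR element TTTGAA, and its window is shown as an example. It covers chr8:57511593-57511842 on the plus strand (RefSeq, GRCm38.p6), 250 bases before the RefSeq start, which lies 64 bases before that of GENCODE, with CCAAT and TTTGAA in capitals on either strand.
Hmgb2: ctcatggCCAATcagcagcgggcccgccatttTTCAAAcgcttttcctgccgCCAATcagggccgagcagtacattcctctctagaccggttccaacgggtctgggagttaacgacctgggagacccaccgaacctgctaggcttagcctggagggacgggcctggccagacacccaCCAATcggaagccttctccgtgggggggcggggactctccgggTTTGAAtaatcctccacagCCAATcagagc
It held CCAAT at 4 places and TTTGAA at 2. Of 34 tested G2/M genes with a window 26 held CCAAT and 12 held TTTGAA, which stood in 18.3% of all symbols and in 12.5% of the tested ones.

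Genes that stop the cycle did not rise as a group. Of 19 CDK inhibitors and p53 targets tested, 1 was higher and 5 were lower, and with library size alone 2 and 2. The sets gave 1 higher and 8 lower against 14A-C and 1 and 5 against 14D-F. The higher gene was Cdkn1a, the inhibitor p21, with 367, 374 and 386 CPM in Matrigel and 180.4, 196 and 212 CPM as the lowest, median and highest in 2D, without overlap (log2 fold change 0.93, SE 0.127, edgeR adjusted p = 7.48e-06). Its level in day 13 collagen organoids was between 292.4 and 475.5 CPM. Cdkn2c, the inhibitor p18, and Bax, which opens mitochondria in cell death, fell, with log2 fold changes of −0.69 and −0.69 (adjusted p = 0.000725 and 3.57e-05 from edgeR). Among Myc and ribosome biogenesis genes 16 of 34 were lower and 0 higher, 10 of them lower against both 2D sets (7 higher and 11 lower against 14A-C and 0 and 20 against 14D-F), and 4 lower and 2 higher with library size alone. Npm1, nucleophosmin of the nucleolus, fell from between 798 and 1029 CPM in 2D to between 466 and 520.5 CPM in Matrigel (log2 fold change −0.89, SE 0.113, edgeR adjusted p = 2.44e-06).

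Ribosomal protein, respiratory chain and proteasome genes were lower, and most of the distance came from 14A-C. Of 87 tested ribosomal protein genes 81 were lower and 0 higher, with a median log2 fold change of −1.16, of −1.56 against 14A-C and of −0.61 against 14D-F, where 72 were lower. Of 38 nuclear genes of oxidative phosphorylation 29 were lower (22 against both 2D sets, 1 higher and 28 lower against 14A-C and 0 and 26 against 14D-F), with medians of −0.63 against 14A-C and −0.30 against 14D-F, and of 30 proteasome genes 24 were lower and 1 higher (22 lower against both, 1 higher and 24 lower against 14A-C and 0 and 24 against 14D-F). Removal of the trend with gene length left 16 and 18 of the respiratory chain and proteasome genes lower, and library size alone left 15 and 12 lower. For ribosomal protein genes these counts are not given. All tested genes of up to 500 exon bases had a median of −1.21 (−1.8 against 14A-C and −0.44 against 14D-F). Those of 500 to 1000 bases had −0.75 (−1.13 and −0.29). The part of gene length in the ribosomal protein result was not tested. Ndufa4, a subunit of cytochrome oxidase, had 2050.1, 2426 and 2929 CPM in 14A-C, 725, 713 and 801 CPM in 14D-F and 455, 464 and 446 CPM in Matrigel (log2 fold change −1.82, SE 0.339, edgeR adjusted p = 0.000285). Psma5, a core subunit of the proteasome, had 467, 545 and 501 CPM in 14A-C, 189.5, 170.4 and 211 in 14D-F and 132, 125 and 122 in Matrigel (log2 fold change −1.44, SE 0.279, edgeR adjusted p = 0.000408). Psmd1, the 1 higher proteasome gene, had a log2 fold change of 0.29 (adjusted p = 0.0792 from edgeR), a call lost without 2D replicate 3 or any 1 Matrigel library (adjusted p from 0.12 to 0.146). Of 8 tested protein genes of the mitochondrial genome 0 passed against the 6 2D libraries in edgeR, 0 had an unadjusted p under 0.05 and 0 passed in DESeq2, while 8 were lower against 14A-C (median −0.64) and 7 higher against 14D-F (median 0.78). With the trend with gene length removed 3 of the 8 were called higher and 0 lower, and their median moved from −0.08 to 0.42.

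**Figure D5:**
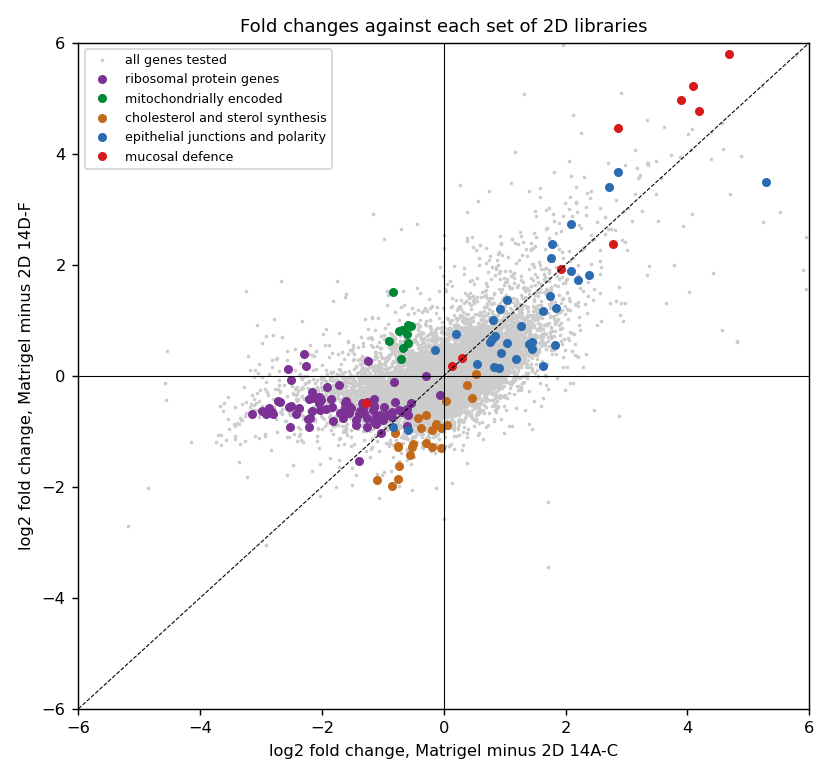
Each point is a tested gene, with its log2 fold change of Matrigel over 2D 14A-C on the x axis and over 2D 14D-F on the y axis. The dashed line marks equal values, colours mark 5 groups of genes, and 6 genes outside ±6 are not drawn, Lcn2 among them. Most ribosomal protein genes (purple) lie lower on both axes and farther on that of 14A-C, mitochondrially encoded genes (green) lie on opposite sides of 0, and 8 of the 11 mucosal defence genes (red) were called higher on both axes, with Wfdc2 below 0 on both.

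Genes of glycolysis and the hypoxia response were higher. Of 28 tested, 16 were higher and 0 lower, 12 of them higher against both 2D sets (22 higher and 1 lower against 14A-C and 14 and 3 against 14D-F), with a median of 0.50. Hk2, the hexokinase that traps glucose, had 215, 234 and 195 CPM in Matrigel, 48.3, 47.5 and 44.4 in 14A-C and 98.6, 98.4 and 71.2 in 14D-F (log2 fold change 1.61, SE 0.18, edgeR adjusted p = 4.14e-07). Ankrd37, a target of hypoxia-inducible factor, had 141, 147 and 161 CPM in Matrigel, 73, 57.2 and 61.1 in 14A-C and 32.4, 32.6 and 41.8 in 14D-F (log2 fold change 1.65, SE 0.187, edgeR adjusted p = 4.83e-07), with the order of the 2D sets reversed. Both lay above all 2D libraries and did not differ from collagen organoids beyond the spread (log2 fold changes of 0.40 and 0.06, adjusted p = 0.201 and 0.912 from edgeR).

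Stress genes and chaperones went both ways. Of 33 genes of the unfolded protein and integrated stress responses 5 were higher and 13 lower, 3 and 8 against both 2D sets (9 higher and 13 lower against 14A-C and 5 and 8 against 14D-F), and library size alone gave 13 and 7. Phgdh, the first enzyme of serine synthesis, fell from between 96 and 148 CPM in 2D to between 53.1 and 59.4 CPM in Matrigel (log2 fold change −1.07, SE 0.166, edgeR adjusted p = 3.68e-05). Chac1, which degrades glutathione, fell from between 15.8 and 45.6 CPM in 2D to between 8.16 and 11.4 CPM in Matrigel (log2 fold change −1.39, SE 0.292, edgeR adjusted p = 0.00084). Sel1l, of the pathway that removes misfolded proteins, rose from between 30.6 and 41.1 CPM in 2D to between 58.3 and 66.3 CPM in Matrigel (log2 fold change 0.80, SE 0.124, edgeR adjusted p = 3.86e-05). Heat shock genes were 1 higher and 4 lower of 12, a balance that turned between the 2D sets, with 5 higher and 3 lower against 14A-C and 0 and 4 against 14D-F, and with library size alone (3 and 1). Hspe1, the mitochondrial co-chaperonin, had 1055, 1290.1 and 1398 CPM in 14A-C, 394, 359 and 388 in 14D-F and 253, 227 and 268 in Matrigel (log2 fold change −1.70, SE 0.334, edgeR adjusted p = 0.000466). Hspa1b, an inducible Hsp70 with a near-identical neighbour, was the 1 higher gene and passed against 14A-C only, with log2 fold changes of 1.23 against 14A-C (edgeR adjusted p = 6.15e-09) and 0.23 against 14D-F (adjusted p = 0.15).

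Immediate early genes, which answer within minutes to handling and enzyme digestion, were 6 higher and 4 lower of 22. The calls leaned opposite ways between the 2D sets, with 4 higher and 10 lower against 14A-C and 9 and 3 against 14D-F (medians −0.24 and 0.26), and library size alone gave 9 higher and 1 lower. Junb had 575, 597 and 649 CPM in Matrigel and 270.3, 327 and 396 CPM as the lowest, median and highest in 2D (log2 fold change 0.89, SE 0.118, edgeR adjusted p = 5.23e-06). Ier3 rose from between 54.7 and 76.7 CPM in 2D to between 116 and 156 CPM in Matrigel (log2 fold change 1.01, SE 0.147, edgeR adjusted p = 1.69e-05). Atf3 and Nr4a1 were lower than 2D (log2 fold changes of −1.08 and −0.79, adjusted p = 0.0205 and 0.0435 from edgeR), and Atf3 overlapped with 2D. The call of Nr4a1 was lost without Matrigel replicate 2 or 3 (edgeR adjusted p = 0.164 and 0.116). In collagen organoids Junb, Atf3 and Nr4a1 stood higher than in Matrigel, with between 851 and 980.1, between 38.9 and 69.4 and between 30.1 and 43 CPM (adjusted p = 0.00296, 3.85e-05 and 0.000131 from edgeR for Matrigel against collagen). Ier3 went the other way, with between 74.2 and 95.8 CPM in collagen (Matrigel over collagen 0.64 on the log2 scale, edgeR adjusted p = 0.00534).

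The list of targets of YAP, the mechanical sensor that is active in spread cells, also holds the pathway's own factors Yap1, Wwtr1 and Tead1. Its genes did not fall as a group, with 8 higher and 3 lower of 20 (6 higher and 5 lower against 14A-C and 7 and 3 against 14D-F). Library size alone gave 11 and 1. With the trend with gene length removed 7 were higher and 4 lower, and the median log2 fold change moved from 0.32 to 0.001. Ccn2, a connective tissue growth factor and YAP target, had 71.6, 65 and 84.5 CPM in Matrigel, 117, 182 and 143 in 14A-C and 116, 102 and 102 in 14D-F (log2 fold change −0.77, SE 0.191, edgeR adjusted p = 0.00313), while collagen organoids had between 11.6 and 24.5 CPM (Matrigel over collagen 1.97 on the log2 scale, edgeR adjusted p = 3.47e-07). Ccn1, its relative, was not called (log2 fold change −0.20, SE 0.177, edgeR adjusted p = 0.412). F3, tissue factor, and Nt5e, which makes adenosine, were higher (181 to 223 CPM against 88.3 to 111, and 95.6 to 105 against 37.5 to 46.5, adjusted p = 2.37e-07 and 4.91e-06 from edgeR). Of 35 actin and actomyosin genes 10 were higher and 4 lower (13 higher and 10 lower against 14A-C and 14 and 4 against 14D-F), and 18 and 1 with library size alone. Actn1, an actin crosslinker of adhesions, rose from between 90.7 and 155 CPM in 2D to between 212 and 251 CPM in Matrigel (log2 fold change 0.85, SE 0.14, edgeR adjusted p = 7.2e-05). Cnn3, calponin 3, fell from between 134 and 229.8 CPM in 2D to between 75.4 and 87.7 CPM in Matrigel (log2 fold change −1.12, SE 0.161, edgeR adjusted p = 1.62e-05).

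In the TGF-beta list 13 of 30 were higher and 1 was lower, 11 higher against both 2D sets (13 higher and 6 lower against 14A-C and 14 and 1 against 14D-F). Ltbp2, a latent TGF-beta binding protein family member, had 17 to 28 counts per Matrigel library and 0 to 3 per 2D library, a ratio of 13.3 with a 95% interval from 6.1 to 34.2. Of 26 genes for EGF ligands, receptors and feedback 5 were higher and 3 lower (8 higher and 2 lower against 14A-C and 6 and 4 against 14D-F), and 11 and 0 with library size alone. Egfr, the EGF receptor, had 16.5, 20.1 and 19.8 CPM in Matrigel and 2.74, 6.07 and 8.73 CPM as the lowest, median and highest in 2D (log2 fold change 1.71, SE 0.249, edgeR adjusted p = 1.74e-05). Erbb3, its partner, rose by 1.57 on the log2 scale (adjusted p = 5.1e-05 from edgeR). Of 20 Wnt and stem cell genes 7 were higher and 1 was lower (8 higher and 2 lower against 14A-C and 8 and 1 against 14D-F), and 7 and 0 with library size alone. Among them was Prom1, the membrane protein prominin 1 of apical protrusions, with 287, 276 and 284 CPM in Matrigel and 63.1, 93 and 110.4 CPM as the lowest, median and highest in 2D (log2 fold change 1.62, SE 0.145, edgeR adjusted p = 9.83e-09).

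The 12 lowest genes were marked by 14A-C. They include 7 annotated processed pseudogenes, 4 of them named as copies of ribosomal protein genes, along with Zfas1, Gm10076, Gm2000, Cxcl15 and Ptgds, and copies of ribosomal protein genes can share reads with their parents. Zfas1, a short non-coding host of small nucleolar RNAs, had 939.7, 1145 and 1276 CPM in 14A-C, 123, 126 and 137 CPM in 14D-F and 90.9, 83.7 and 102 CPM in Matrigel (log2 fold change −2.74, SE 0.595, edgeR adjusted p = 0.00113). Cxcl15, a lung chemokine, had 69.8, 72.8 and 75.9 CPM in 14A-C, 9.13, 7.68 and 14.1 in 14D-F and 2.75, 2.18 and 2.33 in Matrigel (log2 fold change −3.91, SE 0.752, edgeR adjusted p = 0.000457). Ptgds, a prostaglandin synthase, had 52.6, 53.4 and 61.1 CPM in 14A-C, 8.68, 11 and 10.01 in 14D-F and 4.72, 3.92 and 8.16 in Matrigel (log2 fold change −2.42, SE 0.582, edgeR adjusted p = 0.00258). The rule that picked the 12 lowest genes required the Matrigel libraries to lie below all 2D libraries. These 3 genes lay by far less below 14D-F than below 14A-C (log2 fold changes against 14D-F of −0.49, −2.02 and −0.87).

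The genes that divided the 2D sets most are given as values without a test. Between 14A-C and 14D-F, 5288 of 11144 genes (47.5%) did not overlap. The transcripts farthest higher in 14A-C were mostly small RNAs. Rn7sk, the 7SK RNA, had 275, 408 and 252 CPM in 14A-C, 25.1, 25.9 and 23.6 in 14D-F and 35, 38.4 and 52.4 in Matrigel, and the mitochondrial tRNA mt-Tm had 278, 332 and 396 CPM in 14A-C, 25.1, 19.2 and 27.7 in 14D-F and 39.7, 50.6 and 56.5 in Matrigel. Farthest higher in 14D-F were Aqp8, described above, and Slc26a9, an epithelial chloride transporter, with 9.67, 13.6 and 10.8 CPM in 14A-C, 44.3, 54.7 and 39.4 in 14D-F and 24.8, 24.9 and 17.5 in Matrigel, and Cdca2, a mitotic phosphatase subunit, with 6.44, 7.76 and 6.9 CPM in 14A-C, 30.1, 30.2 and 26.5 in 14D-F and 17.7, 17.4 and 9.91 in Matrigel. For Slc26a9 and Cdca2 the Matrigel libraries lay between the 2D sets. A small RNA was also among the genes farthest higher in 14D-F. Snord118, a small nucleolar RNA, had 27 to 72 counts per library in 14A-C, 250 to 327 in 14D-F and 223 to 454 in Matrigel.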

How the data were processed

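RNA was isolated from 2D cells and organoids and made into 3'-end libraries with barcodes and unique molecular identifiers (UMIs). Per the paper's methods, the authors processed the reads with the Drop-seq pipeline on the mouse genome (GRCm38, per the labels) with GENCODE annotation. The deposited values are raw UMI counts per gene, not normalised, in 1 table of 27207 genes and 23 libraries, whether counted by strand not being stated. UMI counts remove PCR copies, and the totals of the 9 libraries, 1221451 to 2265047, limit what can be seen in genes with few counts.

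Counts of all 23 libraries in 6 groups were fitted with edgeR 4.0.16 (R 4.3.3), with TMM factors, filterByExpr (11144 genes tested) and the quasi-likelihood test. Calls were made at a Benjamini-Hochberg adjusted p under 0.1. A second fit divided the 2D libraries into 14A-C and 14D-F. Levels in CPM are counts over the effective library size, and log2 values in figures have 1 added. Exact permutation tests over libraries served single values. Genes were named by rule: the 12 highest and 12 lowest called genes without overlap and with at least 20 CPM in the higher group, the 2 most changed called genes of each list in each direction with at least 10 CPM and the 6 that most divided the 2D sets each way, with genes added for context. The members and the 38 lists were chosen with earlier results of these data known. Hmgcs1, Pou2f2's octamer and the TATA letters were taken up after values or windows were seen. Alternatives were DESeq2 1.42.0, other scalings, filters and sample sets, each library left out in turn, a replicate block and removal of the trend with exon length, the last chosen after the data were seen. No 2 libraries held the same values. The fit was tested on simulated data. A few genes that met the rule are not reported here.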

Additional observations from a re-analysis of the deposited data

Results flagged for a closer look

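Within the 6 2D libraries, 1 library stood apart from the other 5 by Dixon's criterion in 6 of 150 genes examined (4%). Chance gives about 1 in 20 groups only where all libraries of a group come from a single set. The 2D libraries fell into 2 sets that stood apart in many genes, so that the 4% cannot be compared with that rate. C3 was at 5.82 CPM, St14 at 4.85 CPM, Kcnq1 at 9.7 CPM and Aldh1a3 at 16.5 CPM in 2D replicate 2, Angptl4 was at 66.6 CPM in 2D replicate 1, and Lama3 was at 0.457 CPM in 2D replicate 4. In C3, St14 and Lama3 these values stand for very few counts. Matrigel lay above all 2D libraries in C3, St14, Kcnq1, Aldh1a3 and Lama3, the library that stood apart included.

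Against the 2D sets 14A-C and 14D-F, 185 genes were called in opposite directions, with 7 of the 8 tested protein genes of the mitochondrial genome among them. The difference between the sets itself was not tested.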

How the results depend on the processing

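The number of called genes stayed between 3516 and 5747 under every setting run, and named genes mostly kept direction and call. Scaling by library size alone moved the counts to 3481 higher and 1059 lower, because it leaves the TMM factors of 14A-C (0.738 to 0.772) out. With 2D 14A-C alone, 5300 genes were called without overlap, the mitochondrial share differed by −0.8097 percentage points, and 749.2 more genes were detected at equal depth. With 2D 14D-F alone the latter was 784.6 and the share of the 100 most abundant genes differed by 0.28 points. These 3 against 3 tests cannot go below an exact permutation p of 0.1.

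Leaving out 1 library at a time gave 3611 to 4925 called genes, 1822 to 2491 higher, 1789 to 2434 lower, 2853 to 3398 without overlap and 1980 to 2511 called the same way against both 2D sets. The mitochondrial share then differed by 0.2083 to 0.8573 points, the detected genes by 738.5 to 781.9 and the top-100 share by −6.944 to −4.436 points.

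Some genes changed sign. Timp1 had 0.10 and Spink4 0.12 with the trend with gene length removed, Krt7 −0.14 and Mki67 −0.12. With 2D 14D-F alone Spink4 had 0.13, Cdh2 0.12, Krt7 −0.20, Mki67 −0.16 and Ccn1 0.12, and with 14A-C alone Aqp8 had 0.13. With library size alone Cdh2 had 0.21 and Ccn1 0.10. Cdh2, which was not called, ranged from −0.26 to 0.091 with 1 library left out, and was above 0 without 2D replicate 1 (0.010) or 2 (0.042) as well. For these genes the cause was not tested.

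Replicate numbers did not pair the libraries: deviations of same-numbered libraries correlated with r of 0.0461, −0.0145 and 0.0122, and number 1 alone matched itself best. With the number as a replicate block 5176 genes were called, 2600 higher and 2576 lower, 2802 without overlap and 2155 the same way against both 2D sets.

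Genes with under 3 counts in a library, 1.37 to 3.22 CPM in 2D, are beyond what this depth can resolve.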
